A study of Mus musculus with 6 samples.

Results

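The genes described here make, move and process the ceramides and related lipids of the skin barrier. They were chosen by symbol (Sptlc1, Sptlc2, Cers3, Elovl4, Cyp4f39, Pnpla1, Ugcg, Abca12 and Smpd1), taking only array features annotated with exactly 1 symbol and, for a gene with several features, the feature with the highest mean over the 6 arrays. All 9 were measured, out of 22180 genes on the array. Expression was profiled in cells sorted from mouse skin at postnatal day 49 by their surface CD34 and α6-integrin, proteins that mark hair follicle stem cells. There were 3 arrays of wild-type (WT) mice and 3 of mice carrying a K14-sPLA2-IIA transgene (TG), 1 array per sample, all Affymetrix Mouse Gene 2.0 ST. The keratin 14 promoter named in the transgene is active in basal keratinocytes of the epidermis and in the outer root sheath, so the transgene need not be limited to the sorted cells, and secreted phospholipase A2 group IIA cleaves membrane phospholipids to release fatty acids. The labels give neither strain nor sex, and do not say how many mice stand behind an array, so the p-values measure the spread between these samples only.

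The barrier lipids of mammalian epidermis are built in a known order. Serine palmitoyltransferase starts the sphingoid backbone, elongases lengthen fatty acids to very long chains, a P450 hydroxylates their far end, and ceramide synthase 3 joins chain and backbone. Linoleate is then added to give acylceramide, and the product is glucosylated, packed into lamellar granules and released at the upper granular layer. These last steps are best known from suprabasal keratinocytes of the epidermis, while the bulge of the resting follicle is a store of undifferentiated cells.

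Values are deposited log2 expression values, listed throughout in the order of array numbers 1, 2 and 3, and every difference below is TG minus WT on that scale unless another is named. Pla2g2a, the gene of the transgene's enzyme, read 12.61, 12.57 and 12.39 in TG and 6.77, 5.75 and 5.90 in WT, which matches the labels. It was the single gene past an adjusted p of 0.05 in limma (difference 6.38, adjusted p = 0.00255), or 0.00451% of genes tested as higher in TG, and 0.0% were called as lower. Its adjusted p was 0.065 without TG array 1 and 0.173 without both arrays numbered 3, at differences of 6.34 and 6.33. The sort markers were not even across arrays: Cd34 read 9.78, 9.89 and 13.07 in WT and 11.57, 9.65 and 12.42 in TG, while Itga6, encoding α6-integrin, lay between 10.00 and 10.49. Of the genes of the suprabasal epidermis, the keratin genes Krt10 (13.02 to 14.12) and Krt1 (11.94 to 13.86) were bright on every array, while others were dim, such as Krt2 (5.59 to 7.10) and Lce1a1 (3.61 to 8.55). The arrays numbered 3 had the highest Cd34 and the lowest Krt1 of each genotype. For Cd34, TG array 1 lay nearer to TG array 3 than to TG array 2. Results that rest on the arrays numbered 3 are given with and without them below. In sorted bulk RNA, fewer cells of a type and less RNA per cell cannot be told apart.

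The stretch of 250 bases before the annotated start is shown for the 4 genes whose level varied most between arrays (Abca12, Elovl4, Pnpla1 and Cyp4f39). It is also shown for the 2 serine palmitoyltransferase genes among the 9, which varied little, so that both kinds can be read side by side. The sequences are from RefSeq, build GRCm38.p6, 5′ to 3′ on the gene's strand, at chr1:71414911-71415160 (minus strand) for Abca12, chr9:83806306-83806555 (minus) for Elovl4, chr17:28858161-28858410 (plus) for Pnpla1, chr17:32452473-32452722 (plus) for Cyp4f39, chr13:53377362-53377611 (minus) for Sptlc1 and chr12:87388356-87388605 (minus) for Sptlc2. Capitals mark matches on either strand to a GC box, spelled GGGCGG, to a CCAAT box, which is its own spelling, or to the core recognised by Krüppel-like factors, CACCC; where matches touch or overlap, their capitals run together.
Abca12: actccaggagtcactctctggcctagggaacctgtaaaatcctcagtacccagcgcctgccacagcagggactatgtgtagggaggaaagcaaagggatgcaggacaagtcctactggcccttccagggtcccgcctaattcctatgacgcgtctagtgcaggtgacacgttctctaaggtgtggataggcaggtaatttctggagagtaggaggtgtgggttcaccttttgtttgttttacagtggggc
Elovl4: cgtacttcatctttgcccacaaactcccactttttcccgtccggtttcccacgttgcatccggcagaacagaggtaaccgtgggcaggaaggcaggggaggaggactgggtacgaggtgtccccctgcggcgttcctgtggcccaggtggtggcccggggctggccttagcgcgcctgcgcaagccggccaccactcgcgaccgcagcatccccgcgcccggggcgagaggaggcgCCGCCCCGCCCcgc
Pnpla1: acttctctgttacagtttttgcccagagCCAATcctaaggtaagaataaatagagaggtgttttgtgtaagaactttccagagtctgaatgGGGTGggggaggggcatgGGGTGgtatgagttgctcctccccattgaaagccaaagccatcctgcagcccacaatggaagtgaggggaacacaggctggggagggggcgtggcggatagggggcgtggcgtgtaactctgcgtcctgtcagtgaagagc
Cyp4f39: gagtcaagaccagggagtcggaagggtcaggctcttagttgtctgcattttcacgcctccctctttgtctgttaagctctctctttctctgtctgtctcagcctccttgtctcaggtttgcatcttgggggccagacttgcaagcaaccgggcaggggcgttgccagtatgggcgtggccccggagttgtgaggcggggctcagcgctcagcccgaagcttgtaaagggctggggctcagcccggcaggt
Sptlc1: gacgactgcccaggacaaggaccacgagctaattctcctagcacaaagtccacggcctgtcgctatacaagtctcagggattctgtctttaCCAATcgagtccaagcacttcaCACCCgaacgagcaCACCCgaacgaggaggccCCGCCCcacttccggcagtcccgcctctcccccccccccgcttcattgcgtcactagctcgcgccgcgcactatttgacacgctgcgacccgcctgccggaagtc
Sptlc2: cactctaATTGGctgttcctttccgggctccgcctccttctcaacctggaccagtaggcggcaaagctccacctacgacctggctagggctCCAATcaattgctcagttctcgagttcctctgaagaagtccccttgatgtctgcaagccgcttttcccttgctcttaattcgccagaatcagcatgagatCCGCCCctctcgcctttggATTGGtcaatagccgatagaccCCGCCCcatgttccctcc
A CCAAT box was found in the windows of Sptlc1, Sptlc2, Smpd1 and Pnpla1, against 33.8% of 32851 windows in the same table, and a GC box in those of Sptlc1, Sptlc2, Smpd1, Elovl4 and Ugcg, against 32.7%. The Krüppel-like core lay in 5 of the 9 windows (Cers3, Pnpla1, Ugcg, Smpd1 and Sptlc1), against 52.0%. The windows of Abca12 and Cyp4f39 held none of the 3, and no window of the 9 held an AP-1 site (TGANTCA, 6.75% of all windows), a TATA box (TATAAA, 12.4%), a grainyhead site (AACCGGTT, 0.116%) or the PPAR direct repeat (AGGTCA in tandem with a single base between, 0.0335%). Guanine and cytosine made up 80.4% of the Ugcg window and 69.6% of the Elovl4 window, but 49.6% for Cers3, 53.2% for Abca12 and 54.0% for Pnpla1, with a median of 52.4% over all windows. These are letter matches in short windows and say nothing of factor binding.

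None of the 9 genes passed the test between genotypes, in either direction, where 0.00451% of all genes were called higher and 0.0% lower. All 9 differences lay below 0, from -0.84 for Cyp4f39 to -0.05 for Sptlc2 with a median of -0.29, against 52.1% of all genes below 0 and an all-gene median of -0.0075. Every adjusted p in limma was 0.99996. None reached an unadjusted p of 0.05, where the shares of all genes were 1.93% higher and 0.843% lower. The TG and WT arrays overlapped for all 9, while 3.21% of all genes had their 3 TG arrays below their 3 WT arrays.

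Arrays of the same number deviated together for numbers 2 and 3 (correlations of 0.67 and 0.74) but weakly for number 1 (0.20). WT array 1 was closer to TG array 2 (0.50), so the data do not settle how the arrays numbered 1 and 2 pair. With this limit, the genotypes were also compared within each number. TG read below WT within all 3 numbers for 7 of the 9 genes (all but Pnpla1 and Sptlc2), where 16.5% of all genes did so. With the number as a block in limma, Cers3, Elovl4, Abca12 and Cyp4f39 had an unadjusted p under 0.05 and none of the 9 did as higher, against 3.86% of all genes lower and 4.59% higher. No adjusted p passed in that fit either, the smallest being 0.538 for Cers3 and Cyp4f39. Suprabasal markers lay below WT in TG too, 14 of 16 by their mean (median -0.41) and 12 of 16 within all 3 numbers, and 5 of the 16 had an unadjusted p under 0.05 as lower in the blocked fit. Of the bulge markers 10 of 12 lay above 0 by their mean, but only 1 of 12 within all 3 numbers, where 14.6% of all genes did so. The median difference of the bulge markers was 1.18 within number 1, -0.086 within number 2 and -0.21 within number 3. Of the fibroblast markers 6 of 6 lay above 0 by their mean and 4 of 6 within all 3 numbers. In the blocked limma fit 4 of the 6 had an unadjusted p under 0.05 as higher. Of the upper follicle markers 7 of 8 lay above 0 by their mean and 5 of 8 within all 3 numbers, with 3 of 8 as higher at that p. T cell markers lay below 0 for 6 of 6 by their mean, but for 0 of 6 within all 3 numbers. The part of these cells in the differences was not tested. The pairing comes from the data and not from the labels, and the genes were chosen with earlier results of these arrays known.

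**Figure D1:**
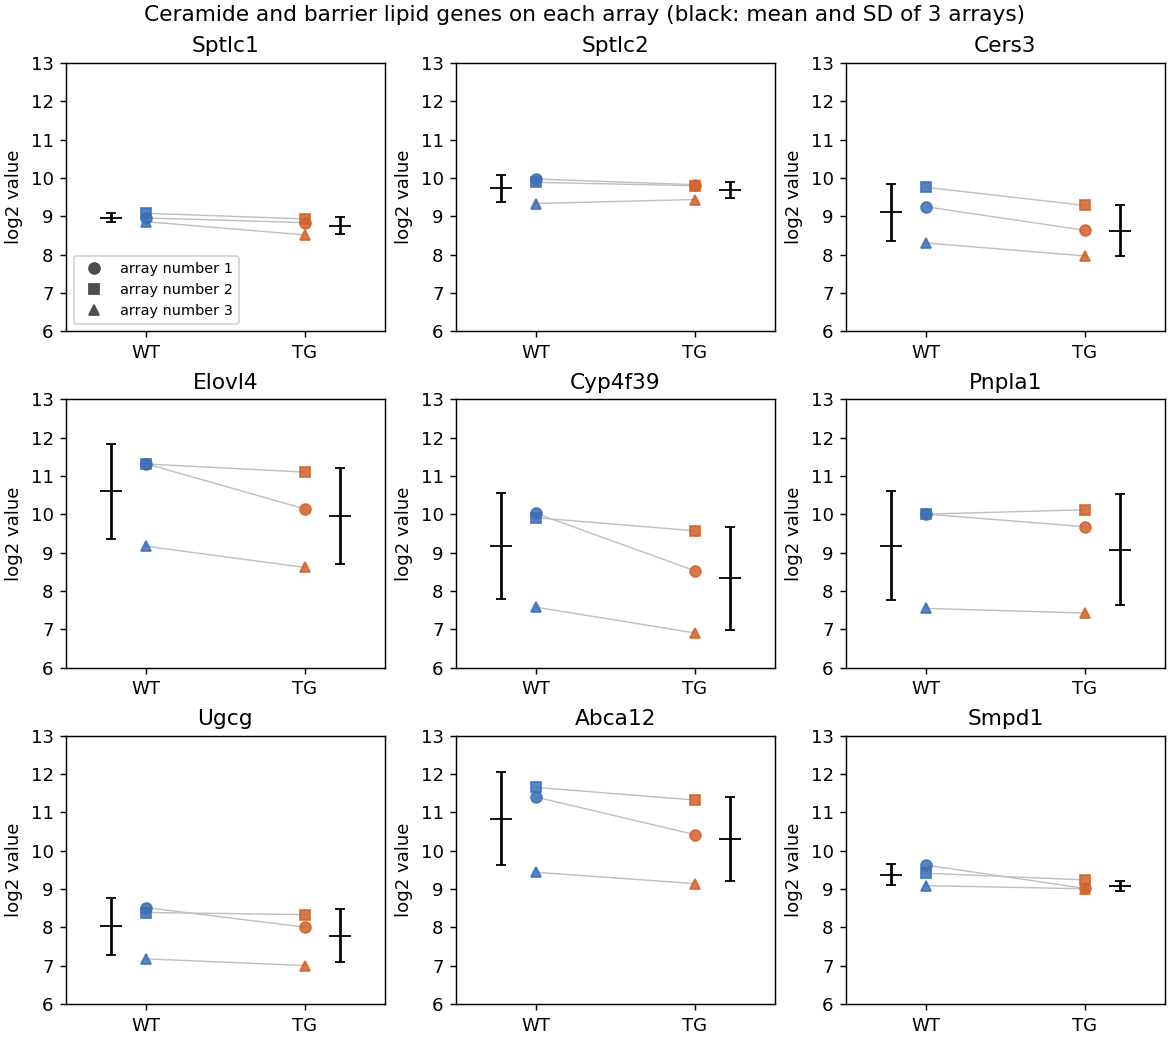
Log2 value of each ceramide and barrier lipid gene on the 3 WT (blue) and 3 TG (orange) arrays; marker shapes give the array number, grey lines join arrays of the same number, and black bars give mean and SD. For 6 genes the spread among arrays of a genotype is far larger than the step between genotypes, with the arrays numbered 3 lowest, while Sptlc1, Sptlc2 and Smpd1 each span at most 0.64 over all 6 arrays.

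The backbone genes among the 9, Sptlc1 and Sptlc2, varied little between arrays. Sptlc1, the partner subunit of serine palmitoyltransferase, read 8.96, 9.08 and 8.86 in WT and 8.83, 8.93 and 8.51 in TG. The groups overlapped by a narrow margin, since the lowest WT array lay between TG arrays 2 and 1, and the difference was -0.21 ± 0.16 (SE, limma, n = 3 per group). Sptlc2, the subunit that carries the cofactor of the reaction, read 9.97, 9.89 and 9.33 in WT and 9.82, 9.80 and 9.44 in TG. Its difference was -0.05 ± 0.21 with a 95% interval from -0.55 to 0.46, and within number 3 TG was the higher array by 0.10.

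Cers3, encoding the ceramide synthase that uses very long acyl chains in skin, read 9.25, 9.76 and 8.30 in WT and 8.63, 9.28 and 7.96 in TG. Each TG array lay below the WT array of its number, by -0.62, -0.47 and -0.34, so the within-number differences were close to each other although the arrays of each genotype spread over more than 1 unit. The difference was -0.48, with an SE of 0.45 unpaired and 0.11 with the number as a block (unadjusted p = 0.0063 and adjusted p = 0.538 in the blocked limma fit).

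Elovl4, the elongase that makes the longest saturated chains, read 11.32, 11.32 and 9.17 in WT and 10.14, 11.10 and 8.61 in TG. WT arrays 1 and 2 were nearly equal, TG array 1 lay about midway between them and the arrays numbered 3, and the difference was -0.65 ± 0.80 (SE). Cyp4f39, the mouse counterpart of the human fatty acid ω-hydroxylase CYP4F22, read 10.03, 9.91 and 7.58 in WT and 8.53, 9.57 and 6.90 in TG. It showed the largest difference of the 9, -0.84 ± 0.87 (SE), which is 1.79-fold if the log base is 2. Within numbers 1 to 3 the Cyp4f39 differences were -1.50, -0.34 and -0.67, so number 1 contributed most, as it did for Elovl4 (-1.18, -0.21 and -0.55).

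Pnpla1, whose product transfers linoleate to ω-hydroxyceramide, read 10.01, 10.01 and 7.54 in WT and 9.68, 10.12 and 7.42 in TG. Genotypes were close within each number (-0.33, 0.11 and -0.12), and the difference was -0.11 with a 95% interval from -2.29 to 2.06 unpaired and from -0.43 to 0.20 with the block. A dimmer feature of Pnpla1 was likewise lowest on the arrays numbered 3, at 5.73, 5.69 and 4.69 in WT and 5.80, 5.60 and 4.80 in TG, with a difference of 0.03 between genotypes. The sign of the Pnpla1 difference thus depended on the feature used.

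Ugcg, the glucosyltransferase that turns ceramide into glucosylceramide for packing, read 8.52, 8.39 and 7.18 in WT and 8.01, 8.33 and 7.00 in TG, a difference of -0.25 ± 0.46 (SE). Abca12, the transporter that loads glucosylceramide into lamellar granules, read 11.40, 11.66 and 9.44 in WT and 10.42, 11.32 and 9.14 in TG, a difference of -0.54 ± 0.74 (SE). For both genes the arrays ranked WT 1 and 2 at the top, then TG 2, TG 1, WT 3 and TG 3. Smpd1, the acid sphingomyelinase that releases ceramide from sphingomyelin after secretion, read 9.63, 9.41 and 9.09 in WT and 9.02, 9.24 and 9.01 in TG. Its WT array 3 lay between TG arrays 2 and 1, and the difference was -0.29 ± 0.17 (SE, exact permutation p = 0.2, where 3 against 3 arrays cannot go below 0.1). The second, dimmer feature of Smpd1 gave -0.03. It read 8.18, 7.72 and 7.30 in WT and 7.78, 8.07 and 7.26 in TG, a wider spread between arrays than that of the brighter feature.

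**Figure D2:**
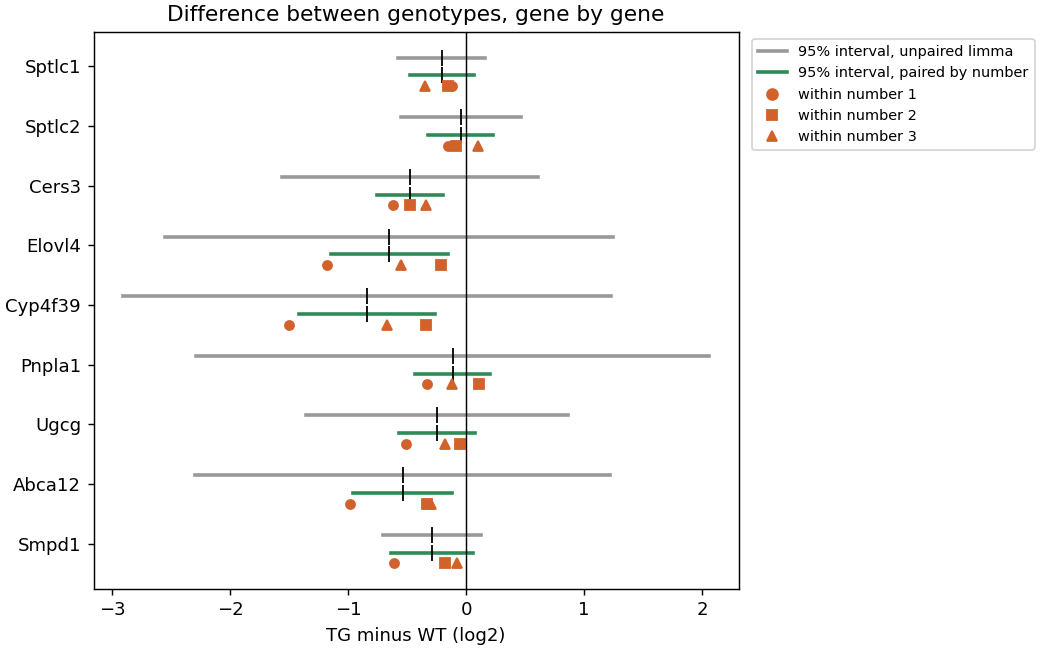
TG minus WT (log2) for each gene, with the 95% interval of the unpaired limma fit (grey), that of the fit with array number as a block (green), and the differences within numbers 1, 2 and 3 (orange). All 9 black marks lie left of 0 and all 9 grey intervals cross 0; the green intervals of Cers3, Elovl4, Abca12 and Cyp4f39 do not.

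The differences depended on single arrays. Without TG array 3 the sign turned for Elovl4 (0.019), Abca12 (0.039), Ugcg (0.14), Sptlc2 (0.08) and Pnpla1 (0.71), and 4 of the 9 genes stayed below 0. Without WT array 3 the median difference was -0.88. Leaving out both arrays numbered 3 kept all 9 below 0, with Cyp4f39 at -0.92, Elovl4 at -0.70, Abca12 at -0.66 and Cers3 at -0.54, but with 2 arrays a group the smallest adjusted p was 0.783 in limma.

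The larger pattern in these genes ran between arrays of the same genotype. On array 3 each of the 9 genes was the lowest of its genotype in both WT and TG, as were 34.5% of all genes. Elovl4, Abca12, Pnpla1, Ugcg and Cyp4f39 were lower there by at least 1 log2 unit than either other array in both genotypes, which held for 1.51% of all genes. The gap between array 3 and the mean of arrays 1 and 2 was -2.46 in WT and -2.48 in TG for Pnpla1, -2.39 and -2.15 for Cyp4f39, -2.15 and -2.01 for Elovl4, and -2.09 and -1.73 for Abca12. It was -1.27 and -1.17 for Ugcg and -1.20 and -0.99 for Cers3. For Sptlc2, Smpd1 and Sptlc1 it lay between -0.60 and -0.12, by the brightest feature of each. The dimmer feature of Smpd1 was also lowest on array 3 in both genotypes, with a wider spread. Among the 9, Elovl4, Cyp4f39, Pnpla1 and Abca12 were thus low on the same arrays, while Sptlc1, Sptlc2 and Smpd1 varied less. This did not hold by pathway step. Sptlc3, another serine palmitoyltransferase gene, had gaps of -1.57 in WT and -1.52 in TG. Of the 11 other elongation genes 7 were lowest on array 3 in both genotypes, but Hacd1 (1.58 and 1.30) and Elovl5 (0.48 and 0.40) were higher there. Over the 6 arrays the SD was above 0.5 for 6 of the 9 genes, against 10.3% of all genes. It was between 0.19 and 0.26 for Sptlc1, Smpd1 and Sptlc2, where the median over all genes was 0.22. WT 3 and TG 3 were the lowest pair of the 6 arrays for 7 of the 9, against 28.8%, and TG 3 was the lowest of all for 8 (not Sptlc2), against 24.3%. No test was run on this split, since the arrays numbered 3 were singled out from these data.

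**Figure D3:**
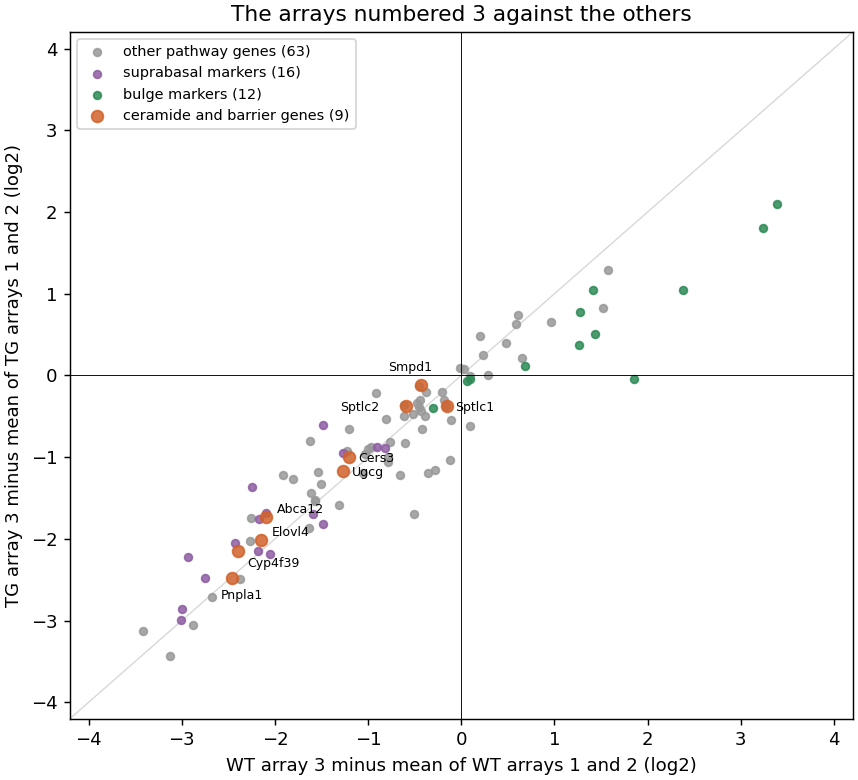
Value on array 3 minus the mean of arrays 1 and 2 of the same genotype (log2), WT on the horizontal and TG on the vertical axis; the grey diagonal marks equal gaps. The 9 ceramide and barrier genes (orange) lie near the diagonal below 0 on both axes, from Pnpla1 at -2.46 and -2.48 to Sptlc1 at -0.16 and -0.37, with grey points for the other pathway genes. The suprabasal markers (purple) have medians of -2.13 in WT and -1.79 in TG, and the bulge markers (green) medians of 1.34 in WT and 0.44 in TG.

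TG array 1 took a middle place for Cers3, Elovl4, Abca12, Pnpla1, Ugcg and Cyp4f39, below the other arrays numbered 1 and 2 and above those numbered 3. For Smpd1 and Sptlc1 it lay below WT array 3, and for Sptlc2 it lay above TG array 2. TG array 1 lay below WT arrays 1 and 2 for all 9 genes, where 37.5% of all genes did so. Against the mean of those 2 arrays it lay at -1.44 for Cyp4f39, -1.18 for Elovl4, -1.11 for Abca12 and -0.87 for Cers3. TG array 2 differed from the same mean by -0.40, -0.22, -0.21 and -0.22 for these genes, and lay below both WT arrays for 7 of the 9, against 35.8% of all genes. TG array 3 lay below WT array 3 for 8 of the 9 (all but Sptlc2), against 49.3%.

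Markers of several cell types that the sort could hold also differed between arrays of a genotype. The mean of 16 suprabasal markers was 10.91, 10.98 and 8.91 in WT and 9.85, 10.92 and 8.60 in TG. Of the 16, 15 were lowest of their genotype on array 3 in both genotypes, as were 34.5% of all genes. The mean of 12 bulge markers ran the other way, at 10.10, 10.14 and 11.52 in WT and 11.14, 10.05 and 11.20 in TG. The mean of the 9 ceramide and barrier genes was 9.90, 9.93 and 8.50 in WT and 9.23, 9.74 and 8.22 in TG, so both means were highest on WT 1, WT 2 and TG 2, lower on TG 1 and lowest on WT 3 and TG 3. Sebocyte markers (10 genes, 6.84 to 8.78 in WT and 7.10 to 8.77 in TG) and T cell markers (6 genes, 7.49 to 9.22 in WT and 7.06 to 9.64 in TG) had their lowest mean on array 3 in both genotypes. In these lists 7 of 10 and 5 of 6 genes were lowest there, against the same 34.5% of all genes. Mean levels on array 3 were also the lowest of each genotype for upper follicle markers (8 genes, 9.63 to 10.54 in WT and 9.74 to 10.96 in TG) and Langerhans cell markers (5 genes, 8.45 to 8.76 in WT and 8.14 to 9.01 in TG). Melanocyte and fibroblast markers did not follow this order, with TG array 3 the highest TG array for both. Melanocyte markers (7 genes) read 7.64, 7.61 and 6.79 in WT and 6.97, 7.31 and 7.46 in TG. Fibroblast markers (6 genes) read 6.30, 6.01 and 6.29 in WT and 6.59, 6.50 and 6.72 in TG, the single marker list whose means did not overlap between genotypes. The values carry no detection call, so no marker could be called absent.

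**Figure D4:**
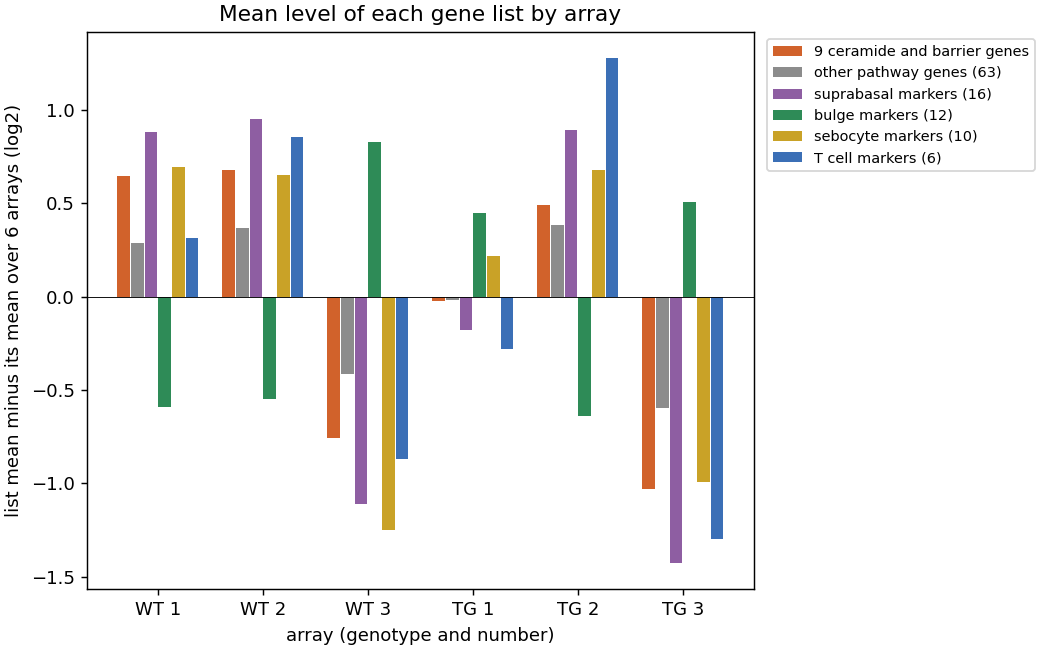
Mean log2 level of each gene list on each array, given as its distance from the list's own mean over the 6 arrays. The ceramide and barrier genes (orange) and the suprabasal markers (purple) are high on WT 1, WT 2 and TG 2, near their mean on TG 1 and low on both arrays numbered 3, while the bulge markers (green) are high on WT 3, TG 1 and TG 3.

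Profiles most like those of the 6 varying genes were sought by the root mean square distance between log2 values over the 6 arrays, each gene centred on its own mean. The genes nearest to Abca12 were Skint5 (0.041), Bmp4 (0.068) and Pkib (0.079). Nearest to Pnpla1 were Klk7 (0.11), a protease gene of the cornified layer, Ndufa4l2 (0.15) and Flg (0.16), encoding filaggrin. Nearest to Elovl4 were Cpxm2 (0.072), the keratin gene Krt77 (0.075) and Gm15987 (0.11), and Abca12 and Cyp4f39 ranked 13 and 14 of all genes there, at 0.13 and 0.14. Nearest to Cyp4f39 were Sema3d (0.078), the epoxide hydrolase gene Ephx3 (0.11) and Mob3b (0.11), with Elovl4 at rank 8. Nearest to Cers3 were Gipc2 (0.053), Npr3 (0.089) and Arap3 (0.095), and nearest to Ugcg were Atp10d (0.034), Skint1 (0.063) and Map2k6 (0.069). All distances rest on the same 6 arrays, and those numbered 3 weigh heavily in each.

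Other genes of the pathway were taken as 4 lists, of which 63 genes were measured. None passed the test in either direction and none reached an unadjusted p of 0.05 in limma, and 38 lay below 0 (52.1% of all genes did), with a median of -0.11. With the array number as a block 13 of the 63 had an unadjusted p under 0.05 as lower and 0 as higher, against 3.86% and 4.59% of all genes, and 0 passed after adjustment. Within all 3 numbers TG lay below WT for 17 of the 63 and above it for 7, against 16.5% and 14.6% of all genes. The barrier list had 18 of 19 genes below 0, against 52.1% of all genes, and a median of -0.29. It holds genes of acylceramide and lipid envelope processing together with the phospholipase gene Pla2g2f, the tight junction gene Cldn1, the protease genes Klk5 and Klk7 and the protease inhibitor gene Spink5. Ceramide synthesis genes, with Sptlc1, Sptlc2 and Cers3 left out, had 4 of 13 below 0 and a median of 0.06. Fatty acid elongation genes had 6 of 11 and a median of -0.03, and genes of ceramide breakdown and transfer 10 of 20 and a median of -0.03.

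The 4 lower genes with the smallest p were Sphk2, Asah2, Aloxe3 and Sgpl1. Sphk2 encodes a sphingosine kinase (-0.66 ± 0.30, SE) and Asah2 is the neutral ceramidase gene (-0.74 ± 0.36). Aloxe3 encodes a lipoxygenase of acylceramide processing (-0.87 ± 0.48), and Sgpl1 is the lyase gene for sphingosine 1-phosphate (-0.35 ± 0.24). In each of these 4 genes TG lay below WT within all 3 numbers, as in 16.5% of all genes, while the groups overlapped. Since these genes were picked by their p on the same arrays, that is no separate result. The 4 higher genes were Ormdl3, a regulator of serine palmitoyltransferase (0.20 ± 0.12), Hacd3 and Hacd1, dehydratases of the elongation cycle (0.30 ± 0.20 and 0.53 ± 0.58), and Elovl5, an elongase of polyunsaturated chains (0.18 ± 0.20). Ormdl3 read 8.74, 8.71 and 8.71 in WT and 8.98, 8.81 and 8.98 in TG, and was the single gene of the 63 whose TG arrays all lay above the WT arrays, which 3.99% of all genes did. All 8 had an adjusted p of 0.99996 in limma.

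**Figure D5:**
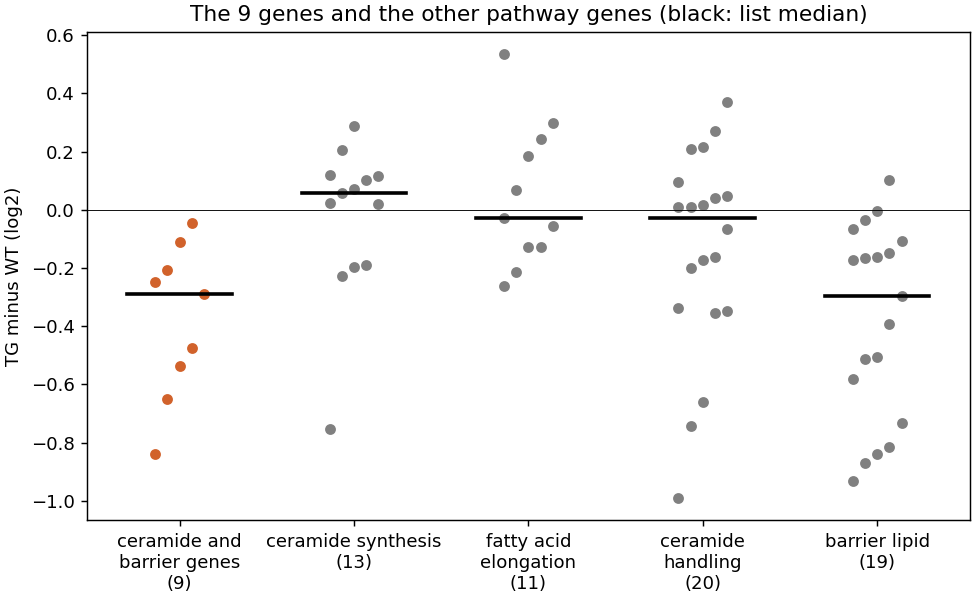
TG minus WT (log2) for each of the 9 ceramide and barrier genes (orange) and for the other pathway genes by list (grey, number of genes in brackets); black bars are list medians. The 9 genes and the barrier lipid list have medians of -0.29 and the other lists lie between -0.03 and 0.06, and no gene shown passed the test.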

How the data were processed

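The values deposited by the authors are treated as log2, from their range of 2.85 to 14.4. Array medians lay between 5.90 and 5.99. As software, the submitters' processing notes list Transcriptome Analysis Console and Affymetrix Expression Console 1.4.1. Their settings, the scaling and the log base are not given in the labels or headers. A base other than 2 would change the fold. No scanner files or detection values were used, so low signals can compress differences, and array number limits precision. Of 41345 features, 23521 had 1 symbol, 1814 several and 16010 none. The brightest one-symbol feature per gene gave 22180 genes, tested with limma 3.58.1 in R 4.3.3 (lmFit, eBayes, genotype only, two-sided, Benjamini-Hochberg over all genes, threshold 0.05). The fit was also run on simulated data, with independent noise of the same size for every gene. Those data held no shift shared by the genes of an array, so the run does not cover the spread seen between these arrays.

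Deviations from genotype means correlated at 0.20, 0.67 and 0.74 between arrays numbered 1, 2 and 3, each above the limit of 0.1, so number served as a block in an alternative fit. The limit does not separate pairs, since WT array 1 with TG array 2 (0.50) and WT array 2 with TG array 1 (0.17) also passed it. Array 3 of each genotype correlated negatively with arrays 1 and 2 of the other, from -0.72 to -0.23. Genes, lists and tests were chosen with earlier results of these data known. Of the listed genes, 7 were not analysed here, and Col4a3bp was matched under its symbol Cert1 after the annotation was seen. Named genes were the 9, 6 checks of labels and sort, the 4 smallest p per direction among pathway genes, and the 3 nearest profiles for genes with an SD above 0.5. Other alternatives were single arrays or both numbered 3 left out, quantile normalization, feature means, a level filter, array weights and a variance trend. RefSeq (GRCm38.p6) supplied a promoter window for all 9 genes.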

Additional observations from a re-analysis of the deposited data

How the results depend on the processing

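No adjusted call among the 9 genes or the 63 pathway genes appeared under any alternative run (0 in each, smallest adjusted p for the 9 genes 0.283 with array weights). Alternatives that kept all arrays, or dropped both numbered 3, left all 9 below 0. Of these, the block, the level filter and the variance trend could change only the p and not the difference. Feature means could change the difference only for Pnpla1 and Smpd1. With 1 array left out, the ranges were -1.37 to 0.019 for Elovl4, -1.23 to 0.039 for Abca12, -0.93 to 0.71 for Pnpla1, -0.67 to 0.14 for Ugcg and -0.24 to 0.079 for Sptlc2, with 4 to 9 genes below 0 and a median from -0.88 to 0.019. Sptlc2 and Pnpla1 also turned without WT array 1 (0.076 and 0.30) and without WT array 2. Cers3, Cyp4f39, Smpd1 and Sptlc1 stayed below 0. Genes of the 9 at an unadjusted p under 0.05 numbered 0 unpaired and 4 with the replicate block. They numbered 2 without both arrays numbered 3, 3 with array weights, and 0 to 1 with an array left out (1 without WT array 3). The array weights were 4.23 for TG array 1, 0.29 for WT array 3 and 0.33 for TG array 3. Shares over all genes were computed for the unpaired and blocked fits only, so the counts under the other settings have no background to be read against. The replicate block changed no adjusted call. All genes past the threshold numbered 0 without both arrays numbered 3 and 0 to 1 with an array left out, Pla2g2a losing its call without TG array 1. Among the checks, ranges with an array left out crossed 0 for Cd34 (-0.31 to 1.37), Itga6 (-0.18 to 0.062), Krt1 (-0.78 to 0.32) and Krt10 (-0.48 to 0.086). The cause of these shifts was not tested.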
